A study of Mus musculus with 45 samples.

Results

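The genes described here are 39 mouse genes of the replication origin and the replication fork, taken by Ensembl ID from a deposited table of 19966 gene counts in liver. All 39 were found there and all 39 passed the filter on low counts, which left 14090 genes. The list follows what their proteins do, and it was drawn up with earlier results of these data known. Livers came from mice called Uhrf1hepKO (KO), whose name stands for loss of Uhrf1 in hepatocytes, and from wild-type mice (WT). All were C57Bl/6 and 8 to 12 weeks old at surgery. Each genotype was sampled before surgery (baseline) and 24, 30, 40, 48 or 96 h, 7 days or 4 weeks later. The surgery was partial hepatectomy, which removes most of the liver and leaves the rest to regrow. This gave 16 groups and 45 poly(A) libraries, with 3 libraries in 13 groups and 2 in the other 3, which were the 7-day KO group and the WT groups of 30 h and 48 h. The labels name neither the allele nor the driver of the deletion. They also leave unsaid whether each library is a different mouse, so a p-value here sets a difference against spread between libraries that may be technical in part.

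DNA replication begins when the origin recognition complex, with CDC6 and CDT1, loads the MCM helicase onto DNA in G1, a step called licensing that geminin (Gmnn) blocks once S phase has begun. The kinase pair CDC7 and DBF4 then lets CDC45 and the GINS subunits join MCM to form the active helicase. Primase and the polymerases alpha, delta and epsilon then copy the strands. The sliding clamp PCNA, which replication factor C loads, holds polymerase delta to DNA. RPA coats the exposed single strand, FEN1 and LIG1 finish the lagging-strand fragments. CLSPN, TIPIN and TIMELESS keep the fork together, and the CAF-1 subunits CHAF1A and CHAF1B put histones on the new DNA. Hepatocytes of the resting adult liver rarely divide and enter S phase almost in step after part of the liver is removed, and the E2F transcription factors are known regulators of many of these genes. UHRF1 itself works at the fork, where it binds DNA that is methylated on the parental strand only and recruits the maintenance DNA methyltransferase.

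E2F factors bind short sequences near the transcription start, so the promoters of the members were searched for them. RefSeq promoter windows (assembly GRCm38.p6, 250 bases before to 50 bases after the start) were available for 31 of the 39 members. An E2F-type motif, written as TTTCCCGC, TTTCGCGC, TTTGCCGC or TTTGGCGC on either strand, was found in 11 of these 31 (35.5%) and in 2.61% of all 27025 genes with such a window. Before the start alone, 5 of 31 (16.1%) and 2.16% of all genes held it. CCAAT was found in 16 of 31 (51.6%) and 41.1% of all genes, and the TTTGAA element, known from genes of late cell cycle, in 6 of 31 (19.4%) and 20.2%. No search string holds another of these strings within it, and a match is a description of letters only. The matches of these 11 genes are shown in 30 bases each because, of the 3 motifs searched, this is the one in which the members stood furthest from all genes. They are written 5′ to 3′ on the strand of the gene with the match in capitals, so a match on the other strand reads as its reverse complement. Rfc3 held 2 of them.

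Orc1: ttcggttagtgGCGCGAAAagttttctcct
Cdc6: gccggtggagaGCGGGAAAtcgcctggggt
Cdt1: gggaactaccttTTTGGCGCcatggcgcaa
Gins3: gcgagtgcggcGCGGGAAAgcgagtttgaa
Pola1: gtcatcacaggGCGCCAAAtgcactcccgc
Pold1: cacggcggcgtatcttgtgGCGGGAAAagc
Pold3: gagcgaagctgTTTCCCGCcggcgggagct
Pole2: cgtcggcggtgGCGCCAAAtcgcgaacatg
Rfc3: gcacgcTTTCGCGCtcGCGGGAAAactcta
Lig1: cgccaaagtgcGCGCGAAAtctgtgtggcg
Clspn: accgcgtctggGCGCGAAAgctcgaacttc

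These windows lie at chr4:108579416-108579445 (Orc1), chr11:98908002-98908031 (Cdc6), chr8:122568035-122568064 (Cdt1), chr8:95633507-95633536 (Gins3), chr7:13278841-13278870 (Lig1) and chr4:126556990-126557019 (Clspn) on the plus strand. On the minus strand they lie at chrX:93632275-93632304 (Pola1), chr7:44548766-44548795 (Pold1), chr7:100121467-100121496 (Pold3), chr12:69228162-69228191 (Pole2) and chr5:151651195-151651224 (Rfc3). The matches of Cdc6 and Pola1 began 138 bases before the start, those of Gins3, Orc1 and the first of Rfc3 at 41, 27 and 10 bases before it. The second match of Rfc3 began at the start itself, and those of the other 6 genes began after it. The 150 bases before the start are shown for Pola1, Rpa1 and Dbf4, as 3 of the 10 members called between the genotypes at 30 h that differ in these motifs. Capitals mark an E2F-type match or CCAAT on either strand (ATTGG is CCAAT on the other strand). Pola1 (chrX:93632156-93632305, minus strand) held both, Rpa1 (chr11:75348384-75348533, minus strand) held CCAAT alone, and Dbf4 (chr5:8422717-8422866, minus strand) held neither.

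Pola1: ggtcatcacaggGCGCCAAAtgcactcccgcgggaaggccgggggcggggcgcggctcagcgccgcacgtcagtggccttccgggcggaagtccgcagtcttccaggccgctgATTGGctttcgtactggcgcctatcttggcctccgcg
Rpa1: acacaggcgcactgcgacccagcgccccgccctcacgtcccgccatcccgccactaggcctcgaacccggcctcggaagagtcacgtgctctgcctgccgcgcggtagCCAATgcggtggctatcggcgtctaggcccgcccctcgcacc
Dbf4: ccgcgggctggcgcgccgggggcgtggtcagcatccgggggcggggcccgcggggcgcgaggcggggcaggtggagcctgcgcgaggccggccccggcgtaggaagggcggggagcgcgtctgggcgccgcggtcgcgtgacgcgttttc

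Libraries held 12.85 to 23.13 M counts. Hepatocyte markers summed to 62320 to 123600 CPM (counts scaled to library size with TMM factors, the unit of all levels below) in the libraries outside 96 h, and to 100100 to 169200 and 199100 to 341800 in those labelled WT and KO at 96 h. Uhrf1, counted over the whole gene, stood at 28.0 and 36.5 CPM in WT against 8.87, 14.6 and 15.2 in KO at 30 h, and at 64.9, 27.5 and 107 against 4.85, 8.95 and 3.59 at 40 h. At baseline it stood at 0 to 0.644 CPM in both genotypes, which was too low to test the labels. Its 96 h values were 0.792, 0.148 and 0.284 CPM in the libraries labelled WT against 0.270, 1.76 and 2.07 in those labelled KO, the opposite order of means to the labels, and the difference was not called (edgeR adjusted p = 0.165). Bglap3 was at 3.17 to 17.4 CPM in the 20 KO libraries outside 96 h and at 0.112 to 1.53 in the 19 WT libraries, but in the 3 labelled WT at 96 h it reached 9.38 to 28.4 CPM. The 96 h libraries labelled WT therefore go against their label by this gene, and every 96 h value below is that of a library labelled WT or KO.

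In WT liver the members rose in a single wave that was highest at 40 h. At 24 h, 13 of 39 were called higher than baseline, against 10.5% of all genes tested (a gene was called where edgeR's quasi-likelihood test gave an adjusted p under 0.05, with the Benjamini-Hochberg method across the 14090 genes). At 30 h it was 33 of 39 against 9.33% of all genes, and at 40 h 38 of 39 against 19.2%. At 48 h it was 36 of 39 against 15.6%. The median log2 fold change of the 39 was 0.55, 1.94, 2.92 and 1.98 at these 4 times. In bulk tissue, more cells with the RNA and more RNA per cell cannot be told apart. The highest WT group mean lay at 40 h for 37 members, at 30 h for Orc1 and at 48 h for Dbf4. From 24 h to 30 h, 28 members were called higher (2.18% of all genes), from 30 h to 40 h 24 (8.07%), and from 40 h to 48 h 6 were called lower (0.185%), namely Pcna, Rpa1, Tipin, Pold3, Rfc1 and Pola1. Leaving out WT replicate 3 at 40 h left 0 of the last calls, and leaving out replicate 2, the lowest of the 3 libraries, raised their number to 18. Without WT replicate 2 at 30 h there were 14 calls from 24 h to 30 h, and without replicate 3 at 30 h there were 15 from 30 h to 40 h. At 24 h, leaving out replicate 1 of WT at baseline or at 24 h gave 5 calls, and leaving out replicate 3 at baseline gave 7.

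In KO liver 26 of the 39 genes had their highest mean at 30 h, while Dbf4 stood there at 28.9% of its highest mean, Pola1 at 65.5%, Gins2 at 67.9% and Clspn at 73.7%. At 24 h, 17 of 39 were called higher than baseline (11.5% of all genes), at 30 h all 39 (17.0%), at 40 h 38 (17.9%) and at 48 h 35 (19.0%), with median log2 fold changes of 0.80, 2.79, 2.61 and 2.34. Of the other members, the highest KO group mean lay at 40 h for 12 (Cdc7, Gins2, Gins4, Pola1, Prim1, Prim2, Pole, Rfc2, Rfc5, Rpa1, Lig1 and Clspn) and at 48 h for Dbf4. From 24 h to 30 h, 38 members were called higher (6.27% of all genes), all but Orc2. From 30 h to 40 h, 11 were called, against 16.1% of all genes in both directions (1215 of 14090 higher and 1051 lower). Dbf4 was higher, and Cdc6, Cdt1, Orc1, Pola2, Pold1, Pold2, Rfc3, Rpa2, Timeless and Wdhd1 were lower. From 40 h to 48 h, 6 were called lower (1.52%), namely Pcna, Pola1, Pole, Prim1, Prim2 and Rpa1. Without KO replicate 3 at 40 h there was 1 call from 30 h to 40 h in place of 11, and without KO replicate 2 at 40 h there were 0 from 40 h to 48 h in place of 6. At 24 h there were 11 without KO replicate 1.

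**Figure D1:**
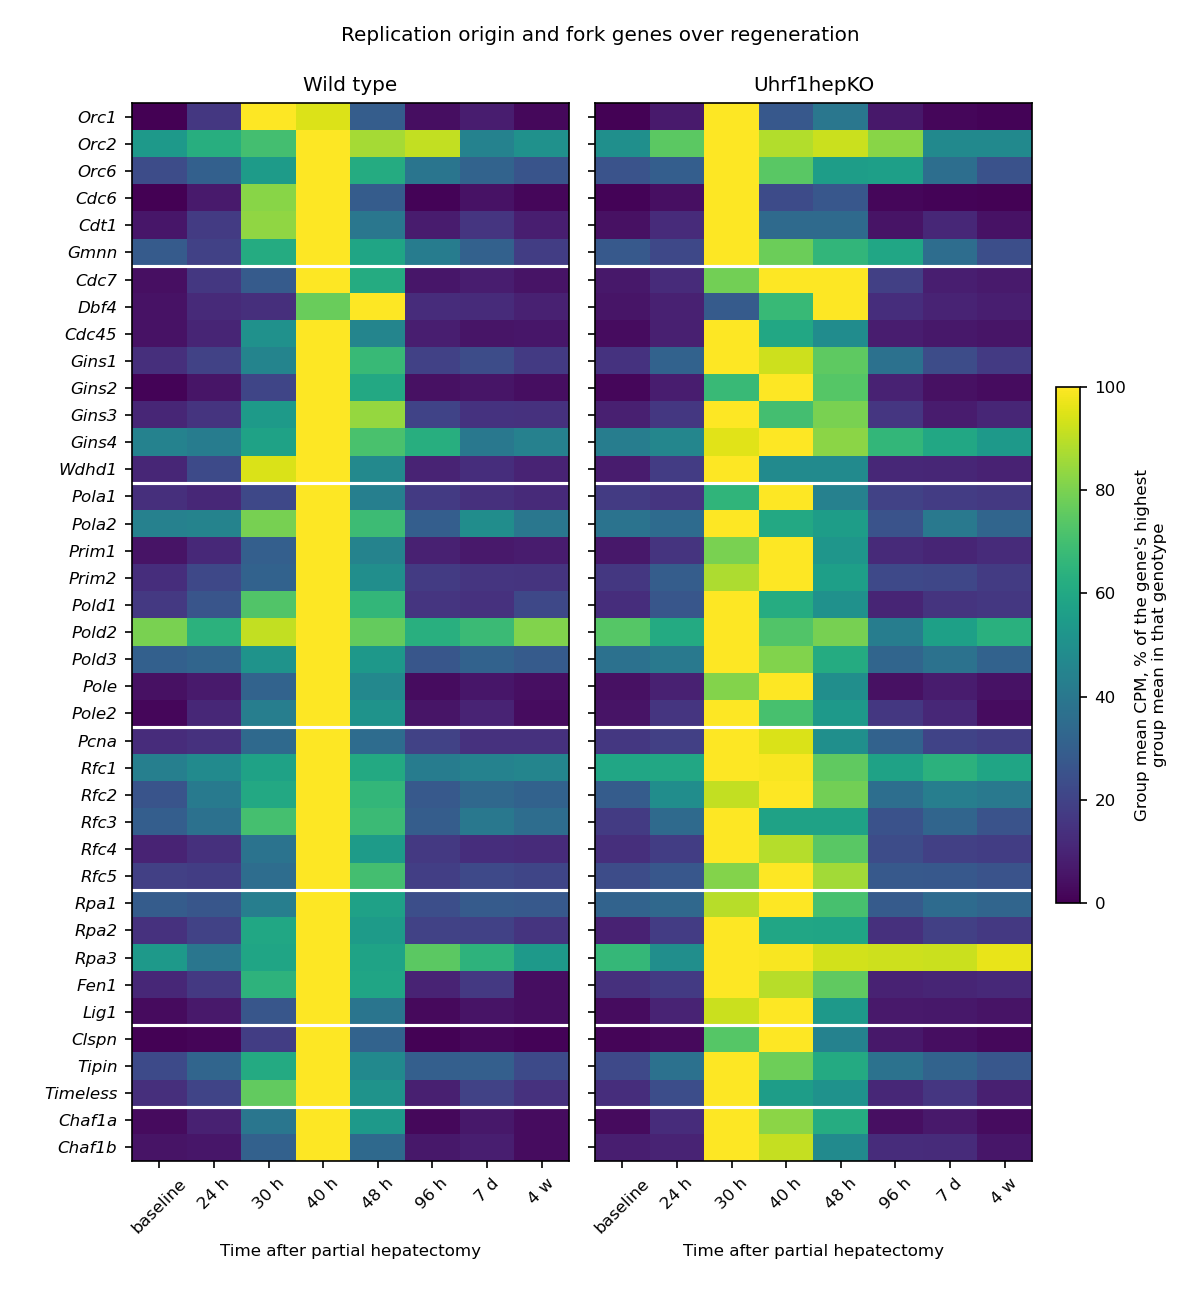
Mean CPM of each of the 39 genes (rows, white lines between role groups) in 8 conditions of each genotype, as a percentage of that gene's highest group mean in the same genotype. In WT the brightest column is 40 h for 37 genes, and in KO it is 30 h for 26 genes.

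The mean at 30 h as a percentage of the mean at 40 h summarises this timing. Its median over the 39 members was 54.5% in WT and 112.6% in KO, and it was larger in KO for 39 of 39. In WT it ran from 17.6% for Dbf4 to 105.6% for Orc1, and in KO from 42.9% for Dbf4 to 440.7% for Cdc6. Origin licensing genes had the highest group medians in both genotypes (76.1% in WT and 212% in KO). The groups overlapped: licensing genes ran from 54.8% to 105.6% in WT and from 113.2% to 440.7% in KO. Genes of origin firing and helicase partners reached 94.2% in WT and 209% in KO. The members' order was compared as a description: their steps from 24 h to 30 h had a Spearman correlation of 0.93 between the genotypes, those from 30 h to 40 h 0.83 and those from 40 h to 48 h 0.43, across 39 genes that share their libraries and are not independent. Members with an E2F-type match had a median of 54.5% in WT and 142.6% in KO (n = 11), and those with a promoter window and no match 52.7% and 112.3% (n = 20). The highest KO mean lay at 30 h for 8 of these 11 and for 15 of these 20.

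Among the origin licensing genes, Orc6, the smallest subunit of the origin recognition complex (ENSMUSG00000031697; chromosome 8, 85299632 to 85308278, plus strand, mm10), stood at 4.53, 3.93 and 2.98 CPM at baseline and at 4.69, 5.25 and 5.10 at 24 h in WT. It reached 9.66 and 8.36 CPM at 30 h, 18.1, 9.54 and 21.6 at 40 h, and 10.5 and 9.68 at 48 h. In KO it went from 4.36, 4.45 and 3.60 CPM at baseline and 4.59, 5.09 and 4.78 at 24 h to 14.5, 15.9 and 18.0 at 30 h, and stood at 10.1, 15.3 and 10.6 at 40 h and 12.6, 7.14 and 7.27 at 48 h. All KO libraries lay above both WT libraries at 30 h, and the genotypes overlapped at every other time named.

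Cdt1, which brings MCM to the origin (ENSMUSG00000006585; chromosome 8, 122568015 to 122573554, plus strand), was at 1.46, 3.58 and 0.840 CPM in WT against 2.67, 1.67 and 2.58 in KO at baseline, and at 8.96, 3.73 and 3.80 in WT and 8.03, 6.86 and 4.32 in KO at 24 h. Libraries at 30 h held 27.4 and 25.1 CPM in WT against 47.4, 51.8 and 56.4 in KO. At 40 h WT libraries held 33.3, 17.2 and 43.6 CPM and KO libraries 13.6, 28.3 and 11.9. The KO libraries thus went from all above WT at 30 h to overlapping with them at 40 h, and the fall within KO was called (log2 −1.54 ± 0.40 SE, edgeR adjusted p = 0.00897). At 48 h KO replicate 1 stood apart, with 33.1 CPM against 10.1 and 10.6 in the others and 13.9 and 11 in WT.

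Cdc6, the ATPase that works with CDT1, had means of 11 ± 1.55 (SD, n = 2) in WT and 27.9 ± 5.08 CPM (n = 3) in KO at 30 h and 13.4 ± 7.48 and 6.34 ± 4.04 at 40 h (n = 3 each). Its fall within KO from 30 h to 40 h was called (log2 −2.14 ± 0.57, edgeR adjusted p = 0.01). Orc1, an ATP-binding subunit of the recognition complex, had no count in any WT baseline library. It stood at 1.74 ± 0.152 and 3.76 ± 0.534 CPM at 30 h and 1.65 ± 1.09 and 1.03 ± 0.238 at 40 h in WT and KO. Orc2 moved less, from 4.07 CPM at baseline to 7.59 at 40 h in WT. Gmnn, the CDT1 inhibitor, went from 6.72 to 23.5 CPM over the same span and stood at 21.5 ± 5.88 CPM in KO at 30 h, where it overlapped with WT.

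Among the genes of origin firing and the active helicase, Dbf4, the regulatory partner of CDC7 (ENSMUSG00000002297; chromosome 5, 8396973 to 8422716, minus strand), was the latest of the 39. In WT it was at 1.31, 2.15 and 1.76 CPM at baseline, 4.74, 4.34 and 3.53 at 24 h, 5.15 and 4.54 at 30 h, 29.9, 26.8 and 26.0 at 40 h and 46.6 and 24.9 at 48 h. In KO it was at 2.46, 1.36 and 3.04 CPM at baseline, 3.90, 3.19 and 4.27 at 24 h, 10.0, 13.3 and 12.5 at 30 h, 23.2, 21.8 and 38.5 at 40 h and 39.3, 44.4 and 40.1 at 48 h. KO was higher at 30 h with no overlap (log2 1.30 ± 0.31, edgeR adjusted p = 0.0308), and the genotypes overlapped at 40 h and 48 h. It was the only member called higher from 30 h to 40 h in both genotypes (log2 2.51 ± 0.32 in WT, adjusted p = 4.76e-07, and 1.23 ± 0.25 in KO, 0.00105, in edgeR).

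Gins1 (ENSMUSG00000027454; chromosome 2, 150905400 to 150931280, plus strand), a GINS subunit, stood at 2.78, 2.00 and 2.06 CPM in WT against 1.90, 2.04 and 2.42 in KO at baseline and at 3.71, 3.60 and 2.60 in WT and 4.76, 4.41 and 4.49 in KO at 24 h. The 30 h libraries held 9.09 and 6.00 CPM in WT against 11.7, 16.4 and 15.2 in KO (log2 0.94 ± 0.23, edgeR adjusted p = 0.0339). At 40 h it was at 15.9, 11.6 and 22.7 in WT and 12.3, 16.4 and 11.3 in KO. At 48 h the values were 12.2 and 10.4 in WT and 11.6, 9.83 and 11 in KO. The KO libraries lay above all WT libraries at 24 h and 30 h and overlapped with them at 40 h and 48 h. The difference at 24 h was not called by edgeR (log2 0.46 ± 0.22). At 24 h the KO libraries lay above all WT libraries for 4.59% of all genes. Gins1 was the 1 member among these, while for 2 members, Cdc7 and Rpa3, the KO libraries lay below all WT libraries.

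Gins4 (ENSMUSG00000031546; chromosome 8, 23226616 to 23237659, minus strand), another GINS subunit, was already at 13.2, 12.6 and 11.8 CPM in WT against 12.2, 8.90 and 10.4 in KO at baseline. It was at 11.6, 12.7 and 11.1 CPM in WT against 12.2, 11.9 and 10.1 in KO at 24 h. At 30 h it was at 18.4 and 14.1 CPM in WT against 22.3, 23.7 and 25.3 in KO, and at 40 h at 24.6, 23.6 and 36.5 and 21.6, 27.2 and 25.8. At 48 h the values were 21.3 and 19.0 and 20.1, 18.8 and 22.6. Its difference at 30 h did not pass the test (log2 0.55 ± 0.16, edgeR adjusted p = 0.0811), though no libraries overlapped.

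The other 5 members of this group also had higher means in KO at 30 h, none of them called. Gins2 stood at 4.26 ± 1.14 CPM in WT against 10.4 ± 1.70 in KO (log2 1.29 ± 0.34, edgeR adjusted p = 0.053), Cdc45 at 11.8 ± 3.09 and 26.5 ± 6.07, and Gins3 at 2.98 ± 0.106 and 5.73 ± 1.10. Cdc7, the kinase, stood at 0.978 ± 0.245 and 1.98 ± 0.331 CPM, and Wdhd1, which ties the helicase to polymerase alpha, at 12.6 ± 0.659 and 17.3 ± 2.13. Wdhd1 was early in both genotypes, with a WT mean at 30 h that was 94.2% of that at 40 h, and it was called lower from 30 h to 40 h in KO (log2 −1.07 ± 0.28, edgeR adjusted p = 0.00953).

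**Figure D2:**
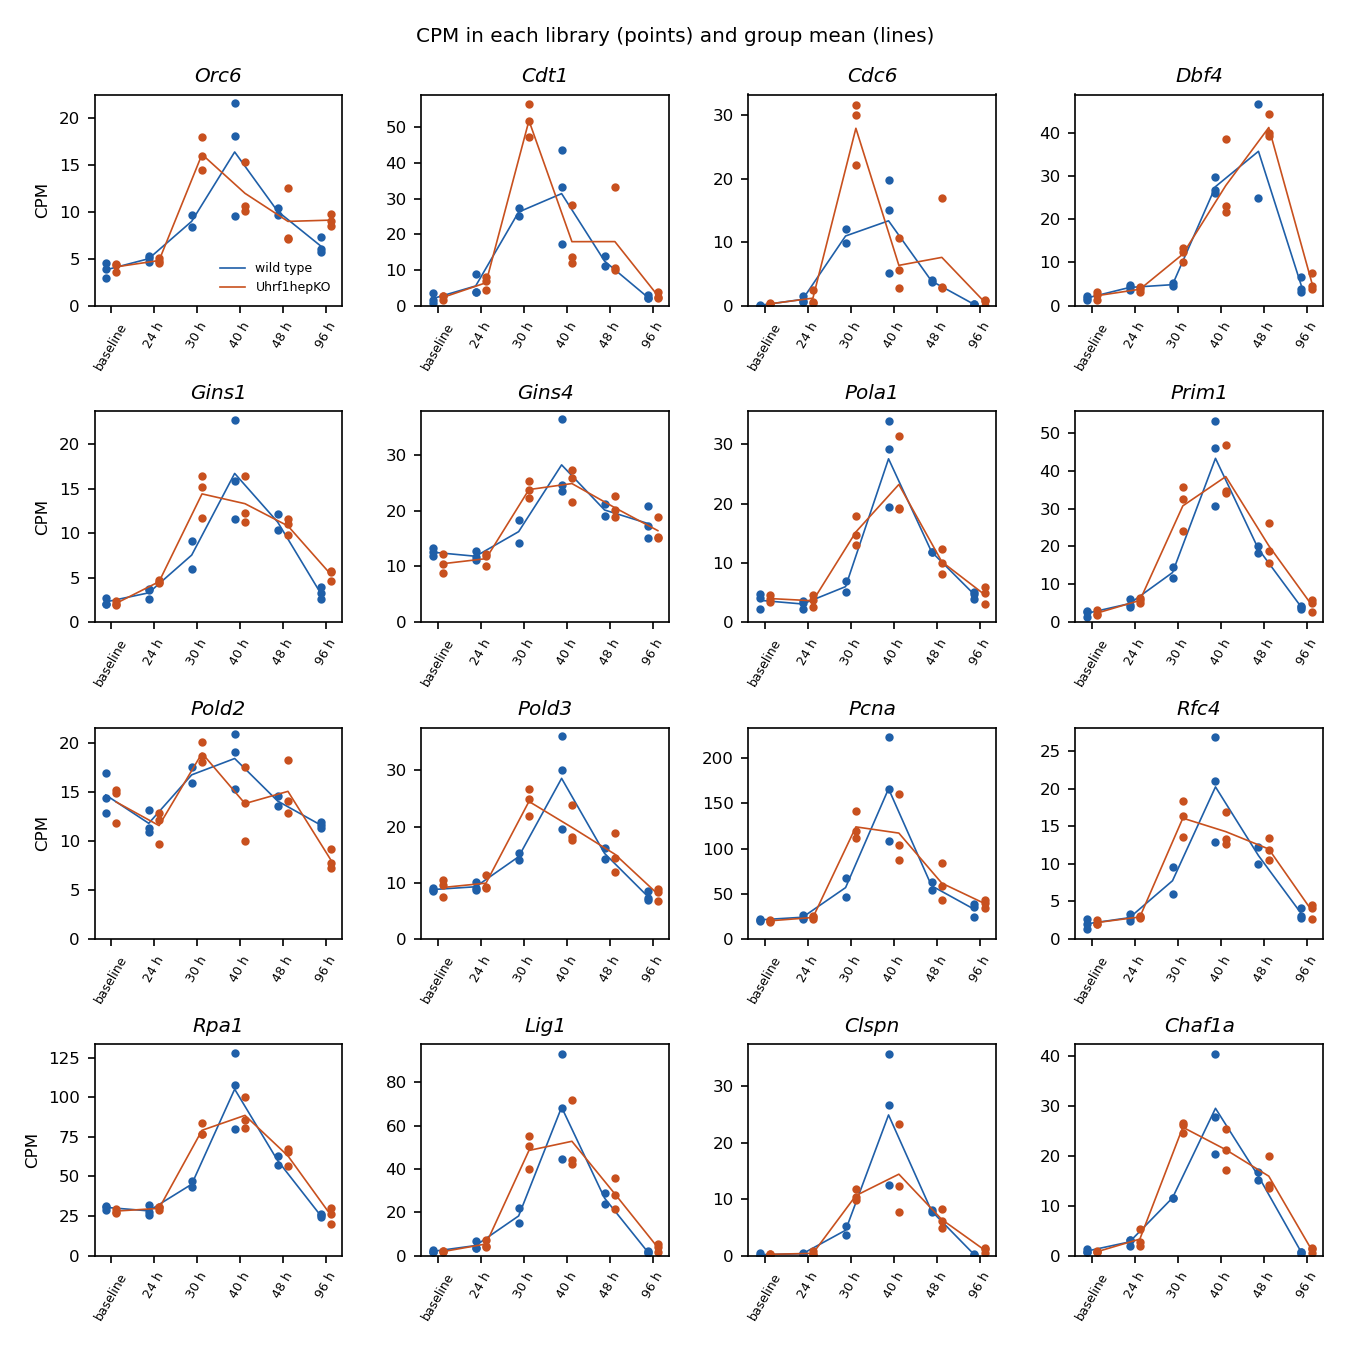
CPM in each library (points) and group means (lines) for 16 of the members from baseline to 96 h, each panel with a linear axis from 0. In most panels KO libraries stand above WT at 30 h and among or below them at 40 h, Dbf4 has its highest mean at 48 h, and Pold2 stays between 7.22 and 20.9 CPM.

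Among the polymerases, Pola1, the catalytic subunit of polymerase alpha (ENSMUSG00000006678; X, 93304767 to 93632155, minus strand), stood at 4.16, 4.72 and 2.22 CPM in WT against 4.64, 3.89 and 3.45 in KO at baseline and at 3.66, 2.26 and 3.31 in WT and 4.53, 2.57 and 3.75 in KO at 24 h. Libraries at 30 h held 6.92 and 5.09 CPM in WT against 14.8, 17.9 and 13 in KO (log2 1.35 ± 0.29, edgeR adjusted p = 0.0177). At 40 h WT libraries held 29.2, 19.5 and 34.0 and KO libraries 19.2, 31.4 and 19.1, and those at 48 h held 11.9 and 11.9 and 12.4, 8.16 and 10.0. Its mean at 30 h was 21.8% of that at 40 h in WT and 65.5% in KO, and the libraries of the genotypes overlapped at 40 h and not at 30 h.

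The primase subunits lay the RNA primer from which synthesis starts. Prim1, the catalytic subunit (ENSMUSG00000025395; chromosome 10, 128015168 to 128030037, plus strand), was at 14.6 and 11.6 CPM in WT against 24.0, 32.4 and 35.7 in KO at 30 h (log2 1.23 ± 0.29, edgeR adjusted p = 0.025), and at 45.8, 30.8 and 53.1 and 34.0, 46.7 and 34.6 at 40 h. Prim2, the large subunit (ENSMUSG00000026134; chromosome 1, 33453810 to 33669795, minus strand), was at 5.79 and 4.54 CPM in WT against 9.86, 12.3 and 11.1 in KO at 30 h (log2 1.10 ± 0.25, adjusted p = 0.0238 in edgeR). At 40 h Prim2 libraries held 17.9, 11.5 and 19.7 CPM in WT against 10.2, 16.8 and 10.8 in KO. For both genes the KO libraries were all above WT at 30 h and overlapped with them at 40 h.

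Pold3, an accessory subunit of polymerase delta (ENSMUSG00000030726; chromosome 7, 100082111 to 100121565, minus strand), stood at 8.47, 9.08 and 8.79 CPM in WT against 10.4, 7.42 and 9.63 in KO at baseline and at 10.0, 8.73 and 9.06 in WT and 11.4, 9.32 and 9.10 in KO at 24 h. It was at 15.2 and 14.1 CPM in WT against 21.8, 25 and 26.6 in KO at 30 h (log2 0.74 ± 0.20, edgeR adjusted p = 0.0553). At 40 h it was at 30.1, 19.5 and 36.1 in WT and 18.1, 23.8 and 17.6 in KO. At 48 h the values were 16.2 and 14.3 and 18.9, 11.9 and 14.4.

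Pold2, another polymerase delta subunit (ENSMUSG00000020471; chromosome 11, 5872180 to 5878292, minus strand), was 1 of 2 members whose highest mean stayed under 2 times baseline in both genotypes. It was at 16.9, 14.4 and 12.8 CPM at baseline, 13.2, 11.4 and 10.9 at 24 h, 15.9 and 17.6 at 30 h, 19.1, 15.4 and 20.9 at 40 h and 13.6 and 14.6 at 48 h in WT. In KO it was at 14.9, 15.3 and 11.8 CPM at baseline, 12.9, 12.1 and 9.73 at 24 h, 18.7, 20.2 and 18.1 at 30 h, 13.9, 17.6 and 10.0 at 40 h and 18.3, 14.2 and 12.9 at 48 h. It was the 1 member not called at 40 h in either genotype. Of the remaining polymerase genes, Pole, the catalytic subunit of polymerase epsilon, stood at 13.6 ± 0.0651 CPM in WT against 29.3 ± 1.96 in KO at 30 h, and its partner Pole2 at 2.65 ± 0.578 and 5.37 ± 0.841. Pold1, the catalytic subunit of polymerase delta, stood at 13.9 ± 0.763 and 22 ± 3.60, and Pola2 at 12.3 ± 0.410 and 18.9 ± 1.84, none of the 4 called.

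Pcna, the sliding clamp (ENSMUSG00000027342; chromosome 2, 132249162 to 132253314, minus strand), was at 21.1, 19.7 and 22.2 CPM at baseline, 26.9, 23.3 and 21.6 at 24 h, 67.7 and 45.9 at 30 h, 166, 109 and 224 at 40 h and 54.6 and 63.1 at 48 h in WT. In KO it was at 18.9, 20.3 and 20.8 CPM at baseline, 25.2, 22 and 23.8 at 24 h, 111, 119 and 142 at 30 h, 104, 161 and 87.1 at 40 h and 83.9, 42.9 and 58.2 at 48 h. The KO libraries were all above WT at 30 h, by 2.19-fold (log2 1.13 ± 0.24, edgeR adjusted p = 0.0162), and overlapped with WT at 40 h. The step from 30 h to 40 h was a rise in WT (log2 1.55 ± 0.25, adjusted p = 2.34e-05 in edgeR) and was −0.08 ± 0.21 in KO (0.825).

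Among the clamp loader subunits, Rfc4 (ENSMUSG00000022881; chromosome 16, 23113943 to 23127737, minus strand) was at 9.58 and 5.94 CPM in WT against 13.6, 16.3 and 18.4 in KO at 30 h (log2 1.06 ± 0.25, edgeR adjusted p = 0.0268) and at 21.0, 12.9 and 26.9 and 13.3, 17.0 and 12.6 at 40 h. Rfc5 (ENSMUSG00000029363; chromosome 5, 117378103 to 117389047, minus strand) was at 16.1 and 13.7 CPM in WT against 27.4, 26.0 and 30.2 in KO at 30 h (log2 0.91 ± 0.21, adjusted p = 0.0238 in edgeR) and at 43.5, 30.8 and 51.3 and 30.7, 37.8 and 34.0 at 40 h. For both, libraries did not overlap at 30 h and did at 40 h. Rfc3 stood at 10.7 ± 0.429 CPM in WT against 19.9 ± 1.99 in KO at 30 h, Rfc2 at 37.4 ± 3.40 and 49.2 ± 7.28, and Rfc1, the large subunit, at 28.3 ± 4.72 and 39.5 ± 0.989, none of them called. These 5 subunits share 1 complex, but Rfc1 reached only 2.32 times its baseline mean in WT while Rfc4 reached 10.1 times.

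Rpa1, the large subunit of RPA (ENSMUSG00000000751; chromosome 11, 75298166 to 75348324, minus strand), was at 29, 31.5 and 30.9 CPM at baseline, 31.8, 27.3 and 25.6 at 24 h, 47.1 and 43.1 at 30 h, 108, 79.8 and 128 at 40 h and 62.9 and 57.2 at 48 h in WT. In KO it was at 29.5, 27.8 and 27.1 CPM at baseline, 30.6, 30.4 and 28.5 at 24 h, 76.8, 76.8 and 83.9 at 30 h, 80.6, 100 and 85.4 at 40 h and 67.1, 56.4 and 65.5 at 48 h. The genotypes stood apart at 30 h, by 1.76-fold (log2 0.81 ± 0.15, edgeR adjusted p = 0.00478, the smallest of the 39), and overlapped at baseline, 24, 40 and 48 h. It was also the 1 member called in the joint test of the whole time courses (adjusted p = 0.049 in edgeR, against 1.41% of all genes), a call that was lost without the 96 h libraries, and the number called ran from 0 to 7 when 1 of the 45 libraries was left out.

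Rpa3, the smallest RPA subunit (ENSMUSG00000012483; chromosome 6, 8255936 to 8259173, minus strand), was the other member under 2 times baseline in both genotypes by CPM. It was at 5.62, 4.43 and 4.51 CPM at baseline, 3.35, 3.85 and 3.36 at 24 h, 5.71 and 4.85 at 30 h, 9.25, 7.24 and 10.5 at 40 h and 5.44 and 4.98 at 48 h in WT. In KO it was at 4.29, 3.89 and 4.38 CPM at baseline, 3.15, 3.31 and 2.84 at 24 h, 4.79, 6.59 and 7.52 at 30 h, 5.94, 7.61 and 5.20 at 40 h and 7.03, 4.85 and 5.69 at 48 h. In the authors' FPKM table the WT mean of Rpa3 went past 2 times baseline, from 6.98 FPKM at baseline to 15.7 at 40 h. Rpa2, the third subunit, rose far more, to 44.4 ± 14.3 CPM at 40 h in WT and 48.5 ± 8.72 at 30 h in KO from 6.29 ± 1.95 and 4.70 ± 0.853 at baseline.

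Lig1, the ligase that joins lagging-strand fragments (ENSMUSG00000056394; chromosome 7, 13277283 to 13311433, plus strand), was at 1.75, 1.57 and 2.37 CPM in WT against 2.04, 1.98 and 1.39 in KO at baseline. The 30 h libraries held 21.7 and 14.8 CPM in WT against 39.8, 50.5 and 55.4 in KO (log2 1.41 ± 0.35, edgeR adjusted p = 0.0391), and those of 40 h held 68.0, 44.6 and 93 and 44.2, 71.8 and 42.4. The largest fold of the 10 calls at 30 h was this 2.66-fold difference. Fen1, the flap endonuclease, stood at most at 1.10 ± 0.253 CPM (WT at 40 h) in the count table, but the authors' FPKM table gave it 21.9 ± 6.51 FPKM there against 1.51 ± 0.588 at baseline. It overlaps Tmem258 and Gm10143 on the opposite strand, and the cause of the low counts was not tested. Lig1 (with Zswim9), Rfc4 (Eif4a2), Rfc5 (Wsb2), Orc6 (Vps35) and Chaf1a (Ubxn6) also overlap a counted neighbour on the opposite strand. So do Cdc45 (Ufd1), Gins2 (Gse1), Orc1 (Gm12743), Orc2 (Nif3l1), Pole (Gm15792), Rfc2 (Lat2) and Timeless (Gm26847). Orc2 also overlaps a counted neighbour on the same strand, Gm23966. Whether the counting used strand is not given in the sources used here.

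Of the fork protection genes, Timeless (ENSMUSG00000039994; chromosome 10, 128232065 to 128252941, plus strand) was at 4.24, 4.51 and 4.43 CPM in WT against 5.56, 5.13 and 3.97 in KO at baseline and at 7.83, 6.11 and 6.35 and 12.6, 7.54 and 6.2 at 24 h. It was at 26.0 and 24.1 CPM in WT against 28.8, 40.4 and 41.3 in KO at 30 h, at 35.3, 18.4 and 45.3 and 15, 31.3 and 15 at 40 h, and at 17.8 and 16.1 and 27.4, 14.4 and 14.7 at 48 h. Its fall within KO from 30 h to 40 h was called (log2 −0.85 ± 0.29, edgeR adjusted p = 0.0383). Tipin, its partner, stood at 9.88 ± 1.45 CPM in WT against 14.8 ± 1.77 in KO at 30 h.

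Clspn, which carries the checkpoint signal at the fork (ENSMUSG00000042489; chromosome 4, 126556935 to 126593903, plus strand), was at 0 to 0.358 CPM in the baseline libraries of both genotypes and at 0.309, 0.366 and 0.271 CPM in WT against 0.745, 0.0613 and 0.341 in KO at 24 h. At 30 h it was at 5.31 and 3.63 CPM in WT against 10.3, 9.75 and 11.8 in KO, and at 40 h at 26.6, 12.5 and 35.6 and 7.63, 23.4 and 12.2. At 48 h the values were 7.66 and 8.11 and 8.26, 4.81 and 6.04. The separation at 30 h did not pass the test (log2 1.26 ± 0.48, edgeR adjusted p = 0.267).

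Chaf1a, the large subunit of CAF-1 (ENSMUSG00000002835; chromosome 17, 56040439 to 56072289, plus strand), was at 0.730, 1.22 and 0.688 CPM in WT against 0.844, 0.680 and 0.721 in KO at baseline and at 3.14, 1.95 and 3.09 and 5.39, 1.90 and 2.62 at 24 h. It was at 11.6 and 11.6 CPM in WT against 24.5, 26.5 and 26.2 in KO at 30 h (log2 1.15 ± 0.33, edgeR adjusted p = 0.0811), at 27.8, 20.5 and 40.4 and 17.1, 25.5 and 21.2 at 40 h, and at 16.7 and 15.1 and 19.9, 13.6 and 14.2 at 48 h. Chaf1b stood at 8.71 ± 3.16 CPM in WT against 24.5 ± 4.45 in KO at 30 h, the largest log2 fold change of the 39 (1.5 ± 0.39, adjusted p = 0.0536 in edgeR) and not called.

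Across the 39 members, calls between KO and WT outside 96 h were made at 30 h alone. There, 10 members were called higher in KO (Rpa1, Pcna, Pola1, Rfc5, Prim2, Prim1, Rfc4, Dbf4, Gins1 and Lig1) and 0 lower, against 0.873% of all genes called higher. All 39 log2 fold changes were positive, with a median of 0.94. In 36 of 39 (all but Gmnn, Rpa3 and Fen1) the 3 KO libraries lay above both WT libraries, as they did for 15.4% of all genes. In the authors' FPKM table these 3 did not overlap. The lowest KO and highest WT values there were 15.75 and 10.15 FPKM for Fen1, 18.3 and 16.6 for Gmnn, and 8.554 and 8.521 for Rpa3. Pold1 did overlap there, with KO libraries from 6.18 FPKM and WT libraries up to 6.27. Cdt1 and Gins2 had no entry in it, and the share of all genes without overlap was not taken from it. Summed over the 39 genes, WT libraries held 584 and 493 CPM and KO libraries 870, 1016 and 1080. The number of calls turned on single libraries: without WT replicate 3 there were 0, without WT replicate 2 there were 3, and without KO replicate 2 or 3 there were 3 or 2. The 39 values stayed positive each time, with medians of 0.80 to 1.04.

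Other cell types were looked at beside this result. Erythroid markers summed to 90.8 and 169 CPM in WT against 213 to 237 CPM in KO at 30 h, Kupffer cell markers to 55.9 and 258 in WT and 60.6 to 155.5 in KO, and hepatocyte markers to 72730 and 88150 in WT and 62320 to 81860 in KO. Of the markers that passed the filter, 4 of 5 erythroid ones had a positive log2 fold change of KO over WT (median 1.09), 0 of 6 Kupffer cell ones (−0.65), 2 of 2 lymphocyte ones (1.10) and 1 of 7 hepatocyte ones (−0.04). The lymphocyte sums were 0.966 and 0.969 CPM in WT and 0.790 to 1.18 in KO. Medians of the other lists were 0.12 (neutrophil and monocyte), 0.10 (stellate), −0.02 (endothelial) and −0.02 (cholangiocyte). The part of these differences in the result was not tested.

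**Figure D3:**
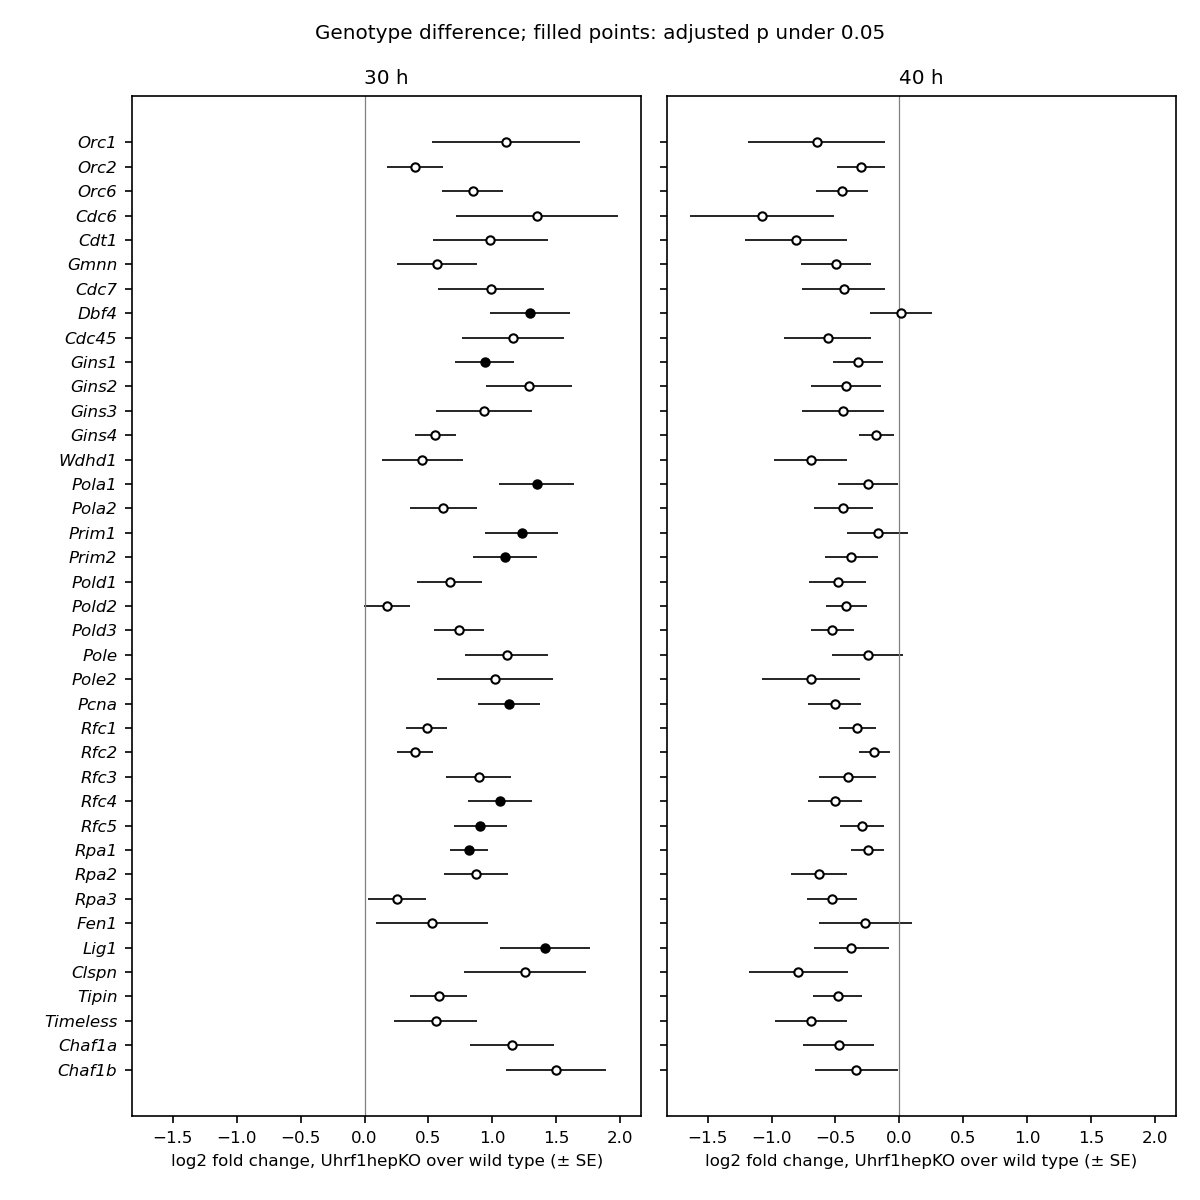
Log2 fold change of KO over WT for each member at 30 h (left) and 40 h (right), with its SE, and filled points for genes called by edgeR. All 39 points are above 0 at 30 h, with 10 called, and 38 of 39 are below 0 at 40 h, with 0 called.

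At 40 h 0 members were called between the genotypes by edgeR (0.142% of all genes), 13 had an unadjusted p under 0.05, and DESeq2 and both limma fits also called 0. The log2 fold changes were negative for 38 of 39, all but Dbf4, with a median of −0.44 that ran from −0.66 to −0.22 when a library was left out. In no member did all KO libraries lie below all WT libraries, as they did for 6.45% of all genes. Summed CPM was 1188, 807 and 1499 in WT and 761, 1110 and 776 in KO, so that WT replicate 2 and KO replicate 2 each lay within the other genotype's range. Kupffer cell markers summed to 42.5 to 128 CPM in WT against 123 to 218 in KO at this time, with 6 of 6 log2 fold changes positive (median 0.92). Erythroid markers summed to 259 to 325 CPM in WT and 171 to 233.5 in KO, with 5 of 5 negative (−0.73). Medians of the other lists were −0.25 (lymphocyte), −0.03 (stellate), 0.02 (hepatocyte), 0.08 (endothelial), 0.14 (neutrophil and monocyte) and 0.16 (cholangiocyte). The part of these lists in the members' values was not tested.

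**Figure D4:**
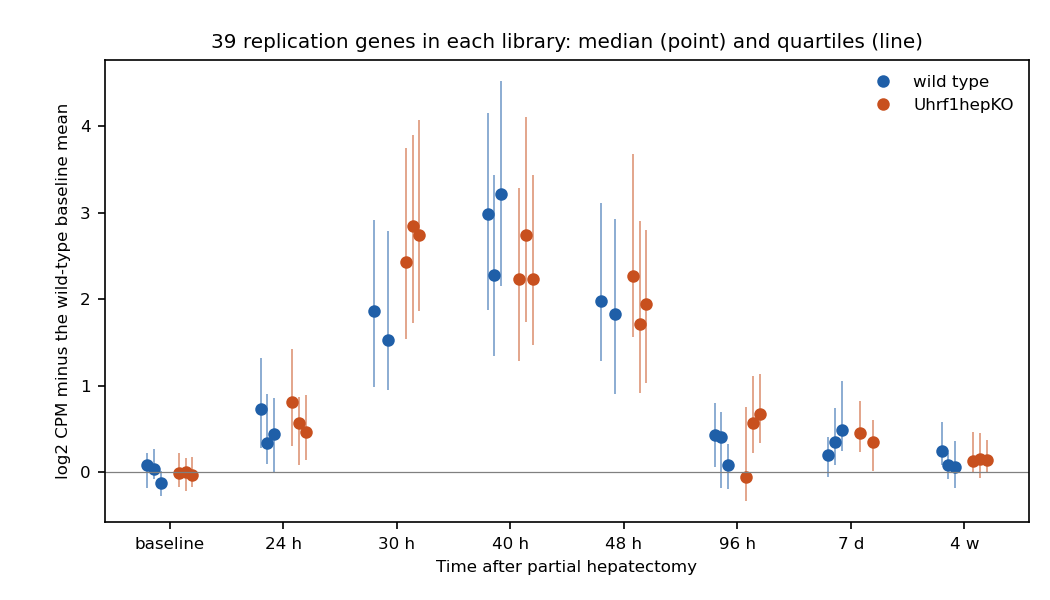
For each library, the median (point) and the quartiles (line) over the 39 genes of log2 CPM (prior count 3) minus the WT baseline mean. KO libraries at 30 h lie at 2.43 to 2.84 and WT at 1.53 and 1.86, and at 40 h the libraries of the genotypes overlap.

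The difference between the genotypes in the change from 30 h to 40 h was tested directly. Its log2 value, KO minus WT, was negative for 39 of 39 members with a median of −1.30, and 10 were called (0.554% of all genes called lower). These were Rpa1 (−1.06 ± 0.20), Pcna (−1.63 ± 0.32), Pold3 (−1.27 ± 0.26), Rfc4 (−1.56 ± 0.33), Rpa2 (−1.5 ± 0.33), Prim2 (−1.48 ± 0.33), Rfc5 (−1.20 ± 0.27), Pola1 (−1.59 ± 0.37), Gins1 (−1.27 ± 0.30) and Orc6 (−1.30 ± 0.31), with edgeR adjusted p from 0.00756 (Rpa1) to 0.0385 (Orc6). Fitted on the 11 libraries of these 4 groups alone, 0 were called, though 38 had an unadjusted p under 0.05 in the fit of all libraries and DESeq2 called 17. Without WT replicate 3 at 30 h the number was 0, and without any 1 of KO replicate 3 at 30 h, WT replicate 3 at 40 h or KO replicate 1 at 40 h it was 1. Without WT replicate 1 at 40 h it was 2, without KO replicate 2 at 30 h or KO replicate 3 at 40 h it was 5, and without WT replicate 2 or KO replicate 2 at 40 h it was 23 or 20.

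**Figure D5:**
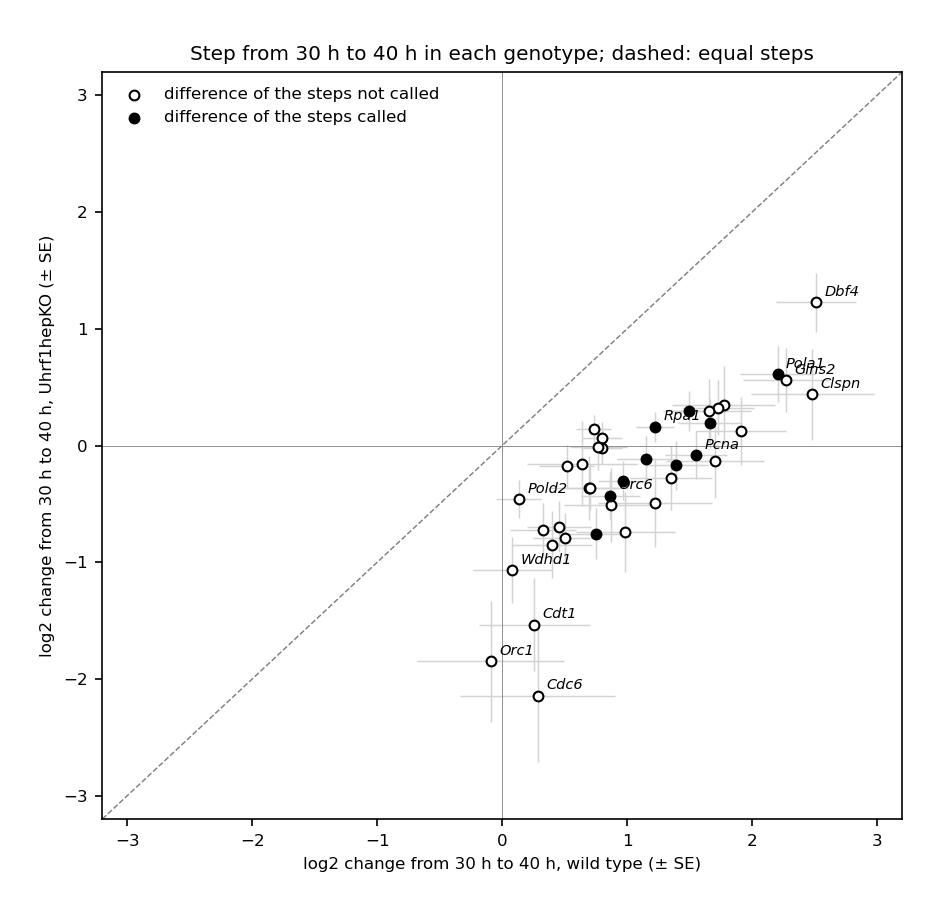
Log2 change from 30 h to 40 h in WT (x axis) and KO (y axis) for each member, with SE, and filled points where the difference of the steps was called. All 39 points lie below the dashed line of equal steps, with Dbf4 at the upper right and Orc1, Cdt1 and Cdc6 at the bottom.

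At the other times outside 96 h the medians lay near 0, and that of 48 h changed sign with the libraries used, to −0.14 without KO replicate 1 and −0.05 without WT replicate 3. By edgeR 0 members were called at baseline (0.0852% of all genes; median log2 −0.02; 0 with an unadjusted p under 0.05), at 24 h (0.0426%; 0.07; 1), at 48 h (0.135%; 0.07; 1), at 7 days (0.135%; 0.04; 1) and at 4 weeks (0.22%; −0.01; 0), and DESeq2 and limma also called 0 at each. At 48 h KO replicate 1 held a summed 799 CPM against 552 and 611 in the other KO libraries and 648 and 593 in WT. Between the libraries labelled KO and WT at 96 h, 3 members were called against 14.3% of all genes, with Clspn (log2 3.02 ± 0.88) and Gins1 (0.71 ± 0.22) higher and Pold2 (−0.53 ± 0.17) lower. Clspn was at 0.360, 1.17 and 1.27 CPM in the former and 0.183, 0 and 0.142 in the latter, Gins1 at 5.67, 5.79 and 4.61 and 3.23, 3.94 and 2.62, and Pold2 at 7.75, 7.22 and 9.22 and 11.6, 11.9 and 11.3. Fitted without the other groups, these 6 libraries gave 0 calls, and leaving out 1 library gave 0 to 3. The members' median log2 fold change between the libraries labelled KO and WT at 96 h was 0.22, with 30 of 39 positive.

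As a percentage of each gene's highest group mean, the members' median at 7 days was 15.3% in WT and 17.9% in KO. Against baseline, 7 members were called higher in the libraries labelled WT at 96 h (12.8% of all genes), namely Dbf4, Gins2, Gins4, Orc2, Orc6, Pcna and Rfc4. In those labelled KO 18 were called, 17 higher and Pold2 lower, against 44.0% of all genes in both directions (3080 of 14090 higher and 3120 lower). At 7 days 2 were called higher in WT (2.25%), Gins2 (log2 2.37 ± 0.54) and Dbf4 (1.33 ± 0.33), and 3 in KO (3.06%), Rfc2 (0.55 ± 0.14), Rpa2 (0.95 ± 0.28) and Rfc3 (0.89 ± 0.27). At 4 weeks 0 were called in WT by edgeR (1.17% of all genes; 4 with an unadjusted p under 0.05; 0 by DESeq2 and limma) and 3 in KO (4.29%), Rfc2 (0.47 ± 0.13), Prim1 (0.97 ± 0.30) and Rpa2 (0.77 ± 0.25). The KO calls at these 2 times share the KO baseline libraries, and leaving out 1 library gave 0 to 2 calls at either time and 0 to 5 in WT at 7 days.

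Neighbouring gene groups were set beside the members at 30 h, where 0.873% of all genes were called higher in KO. Of 38 other replication genes, 2 were called higher in KO (median log2 0.51), among them Mcm7, a helicase subunit, at 54.9 ± 11 CPM in WT against 105 ± 13.8 in KO. Of 9 genes of deoxynucleotide supply, 4 were called (median 0.98), including Rrm2, the small subunit of ribonucleotide reductase, at 18.5 ± 5.80 and 101 ± 25.1 CPM. Of 11 genes of the E2F family and cell cycle entry, 2 were called (1.18), E2f1 (17.4 ± 5.03 and 39.6 ± 5.06 CPM) and E2f7. Of 20 mitosis genes, 9 were called (1.78), including Aurkb, the chromosome passenger kinase (2.33 ± 0.806 and 9.09 ± 2.19 CPM). From 30 h to 40 h in KO, 20 of 20 mitosis genes were called higher (8.62% of all genes) with a median log2 of 2.53, while the 39 origin and fork genes had a median of −0.17. In WT over the same step the medians were 4.23 and 0.87.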

How the data were processed

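Poly(A) RNA of 45 mouse liver libraries in 16 groups was sequenced. The authors deposited whole-number gene counts (19966 genes, 12.85 to 23.13 M counts per library) and FPKM values (46472 entries), aligned to mm10. The submitters' processing notes name FastQC 0.11.5, Trimmomatic, TopHat2 2.1.0, HTSeq, Cufflinks 2.2.1 and DESeq2, with no role or order. Groups come from the labels. Counts were filtered by expression, which left 14090 genes, scaled with TMM and fitted with edgeR 4.0.16 (R 4.3.3; quasi-likelihood, 1 mean per group over all libraries, residual df 29). A gene was called where its p, adjusted by Benjamini-Hochberg across the genes tested, was under 0.05. SE is that of the log2 fold change, and SD is over libraries. The alternatives were library totals, no filter, a replicate block, fewer libraries, a 2-fold minimum, DESeq2 1.42.0 and limma 3.58.1 on log2(FPKM + 0.1 or 1), where 37 members had an entry. The edgeR script was tested on simulated data. Members and lists were chosen with earlier results of these data known.

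Values in every library were given, by rule, for the member of each role group with the highest mean CPM, the member with the smallest joint p, members called between genotypes outside 96 h (in the groups compared), and members under 2 times baseline in both genotypes. From each comparison list the 2 genes with the smallest p at 30 h were eligible for naming. Promoter letters come from RefSeq (GRCm38.p6).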

Additional observations from a re-analysis of the deposited data

Results flagged for a closer look

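For 10 members the log2 change from 30 h to 40 h differed between the genotypes in edgeR's direct test of that difference, KO minus WT. It was −1.06 for Rpa1, −1.63 for Pcna, −1.27 for Pold3, −1.56 for Rfc4 and −1.50 for Rpa2. It was −1.48 for Prim2, −1.20 for Rfc5, −1.59 for Pola1, −1.27 for Gins1 and −1.30 for Orc6. All 39 members had a negative value, and the number called ran from 0 to 23 when 1 library was left out. Of all genes, 0.554% were called lower in this test. Rpa1 was also the 1 member called in the joint test of the whole time courses (edgeR adjusted p = 0.049, against 1.41% of all genes). That call was lost without the 96 h libraries. In the joint test 19 members had an unadjusted p under 0.05, and DESeq2 called 6.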

How the results depend on the processing

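The values are numbers of the 39 members called. No value called between genotypes at 30 h or in the difference of steps changed sign. The members' median between genotypes at 48 h (0.07) ran from −0.14 to 0.14 when 1 library was left out. Under the alternatives that leave out no single library 226 of these numbers stayed within 1.5 times the reported one and 51 did not. Between genotypes at 30 h, 17 were called with library totals, 20 with limma on log2(FPKM + 1) and 17 with DESeq2; at 96 h 0 in the compared libraries alone, 1 with limma on log2(FPKM + 0.1), 0 with + 1 and 1 at 2-fold. Against baseline, limma with + 1 called 6 in WT and 9 in KO at 24 h, 9 in KO at 96 h, and 0 in WT and KO at 7 days and in KO at 4 weeks. Limma with + 0.1 called 1 in WT and 0 in KO at 7 days and 0 in KO at 4 weeks. The compared libraries alone gave 2 in WT and 11 in KO at 96 h and 0 in WT and 1 in KO at 7 days. The 2-fold minimum gave 10 in KO at 24 h, 2 in WT and 11 in KO at 96 h, and 0 in KO at 7 days and 4 weeks, and library totals 0 at both. From 30 h to 40 h the compared libraries alone gave 12 in WT and 6 in KO, limma with + 0.1 gave 6 in KO and 2-fold 5. From 40 h to 48 h in WT there were 1 with totals, 0 in the compared libraries alone, 1 with limma + 0.1, 11 with DESeq2 and 3 at 2-fold, and in KO 2, 0, 2 with limma + 0.1 and 2 at 2-fold. The difference of steps gave 18 with totals, 0 in the compared libraries alone, 1 and 23 with limma + 0.1 and + 1, and 17 with DESeq2. The joint test gave 3 with totals, 0 with no filter, 0 without 96 h and 6 with DESeq2. The causes were not tested.

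Leaving out 1 library gave 0 to 10 calls between genotypes at 30 h, 0 to 3 at 96 h and 0 to 0 at the other times. Against baseline it gave 5 to 12, 29 to 33, 38 to 39, 33 to 36, 3 to 9, 0 to 5 and 0 to 0 in WT from 24 h to 4 weeks, and 11 to 16, 37 to 38, 36 to 38, 35 to 38, 13 to 21, 0 to 2 and 0 to 2 in KO. The steps gave 14 to 26, 15 to 25 and 0 to 18 in WT and 38 to 38, 1 to 11 and 0 to 7 in KO, their difference 0 to 23 and the joint test 0 to 7. The highest mean lay at 40 h in WT for 33 to 38 members and at 30 h in KO for 22 to 30.

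The data did not show that the replicate numbers pair the samples, though groups of 2 or 3 libraries cannot exclude it. Of 21 same-numbered KO and WT pairs, 8 had a correlation of deviations over 0.1 (−0.306 to 0.306). The labels' descriptions name the baseline libraries after the 40 h time point without saying that a number marks 1 animal. Baseline and 40 h libraries of the same number gave 0.157, 0.09 and 0.102 in WT and −0.01, −0.064 and 0.159 in KO. A replicate block between them left 38 members called in WT and 36 in KO, against 38 and 37 in the same 12 libraries without it, a fit chosen after seeing the data. With the replicate block, 8 members were called between genotypes at 30 h, 2 from 40 h to 48 h in WT and 0 in the joint test. Library totals shifted the median of all genes by −0.39 (KO at 96 h against baseline) to 0.18 (WT at 48 h against baseline), and by 0.12 between genotypes at 30 h, where the members' median ran from 0.75 to 1.05 over the alternatives.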

Other observations

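Fen1 gave different levels in the deposited tables. Its mean in WT rose from 0.121 CPM at baseline to 1.10 CPM at 40 h in the count table, and from 1.51 to 21.9 FPKM in the FPKM table. The cause was not tested.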
